A study of Rattus norvegicus with 4 samples.

Results

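The transcripts described here encode 10 enzymes of mitochondrial fatty acid oxidation: Cpt1a and Cpt2 of the carnitine step, the acyl-CoA dehydrogenases Acadvl, Acadl, Acadm and Acads, the trifunctional protein subunits Hadha and Hadhb, and Etfa and Etfdh of electron transfer. They were taken by gene symbol from the probe annotation of the array, where 11 of 33849 gene probes carry these names, 2 of them for Acadl, out of 12461 named genes. The livers came from male Otsuka Long-Evans Tokushima Fatty (OLETF) rats, a model of spontaneous obesity and late-onset diabetes, and both groups are of that strain. In the thiamine group 2 rats were given 0.2% thiamine (vitamin B1) in their drinking water, which is 2 g per L, starting when they were 4 weeks old and lasting 51 weeks, and 2 untreated rats received none. Livers were taken at the age of 55 weeks, following a 16 h fast. Each rat had its own 1-colour CodeLink array and no RNA was pooled. The study held 8 rats per group, housed 2 to a cage, and the labels do not say which were cage mates.

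A long-chain fatty acid enters the mitochondrion as acylcarnitine: Cpt1a, on the outer membrane, moves the acyl chain from coenzyme A to carnitine, a translocase carries it across, and Cpt2 on the inner membrane moves it back. An acyl-CoA dehydrogenase matched to the chain length then opens each round of beta-oxidation, and the trifunctional protein carries out the later reactions on long chains. The electrons that the dehydrogenases remove pass to the electron transfer flavoprotein, of which Etfa is the alpha subunit, and from it through Etfdh to ubiquinone in the respiratory chain. In fasted liver this pathway supplies energy and the acetyl-CoA for ketone bodies, and many of its genes are targets of the fatty acid receptor PPAR alpha.

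Promoter windows are shown for the members furthest apart between the groups, Cpt1a, Cpt2 and Etfdh, and for the stretch that Hadha and Hadhb share. They are RefSeq sequences of build GRCr8, from 250 bases before to 50 bases after the annotated gene start, of the reference strain and not of these rats. A window was found for 9 of the 10 members. Cpt1a is at chr1:209995910-209996209 (+ strand), Cpt2 at chr5:127910769-127911068 (- strand) and Etfdh at chr2:167060709-167061008 (- strand). The Hadha and Hadhb windows overlap on opposite strands over chr6:31907551-31907750 (+ strand shown), since their annotated starts lie 301 bases apart. Capitals mark the GC box GGGCGG and the NRF-1 motif, on either strand, and the Cpt1a window held none of the motifs searched.
Cpt1a: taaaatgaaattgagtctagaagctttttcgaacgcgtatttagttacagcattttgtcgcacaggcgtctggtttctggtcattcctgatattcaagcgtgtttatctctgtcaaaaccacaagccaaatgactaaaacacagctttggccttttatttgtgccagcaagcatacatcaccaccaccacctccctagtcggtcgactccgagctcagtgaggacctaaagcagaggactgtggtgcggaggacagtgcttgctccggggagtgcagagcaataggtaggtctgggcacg
Cpt2: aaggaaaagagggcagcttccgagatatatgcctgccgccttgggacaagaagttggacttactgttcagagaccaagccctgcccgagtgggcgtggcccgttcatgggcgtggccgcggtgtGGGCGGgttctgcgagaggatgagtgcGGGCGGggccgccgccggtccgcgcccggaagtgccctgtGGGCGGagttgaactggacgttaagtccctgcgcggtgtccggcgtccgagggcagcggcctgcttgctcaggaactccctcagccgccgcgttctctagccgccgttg
Etfdh: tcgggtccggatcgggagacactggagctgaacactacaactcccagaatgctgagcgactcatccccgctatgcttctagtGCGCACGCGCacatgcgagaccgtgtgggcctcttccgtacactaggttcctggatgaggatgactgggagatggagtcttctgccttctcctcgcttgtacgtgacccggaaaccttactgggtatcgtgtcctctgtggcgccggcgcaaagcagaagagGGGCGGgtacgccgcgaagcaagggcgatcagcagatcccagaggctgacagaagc
Hadha and Hadhb: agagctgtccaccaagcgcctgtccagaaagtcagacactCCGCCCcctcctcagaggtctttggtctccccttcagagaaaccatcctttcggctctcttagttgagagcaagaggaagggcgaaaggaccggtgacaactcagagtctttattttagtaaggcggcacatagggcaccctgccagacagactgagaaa
The Etfdh window held 1 NRF-1 motif, which was present in 4.25% of all 33469 windows and in that of no other of the 9 members. GC boxes occurred in 6 of the 9 windows (Acadm, Acads, Cpt2, Etfdh, Hadha and Hadhb) and in 33.1% of all windows, and the Cpt2 window held 3. The box in the stretch shared by Hadha and Hadhb counts for both. The nuclear receptor motif AGGTCA was in the windows of Acadvl and Hadhb and in 16.2% of all windows. Its longer form AAGGTCA, which overlaps it, was in that of Hadhb and in 4.61% of all windows. Its direct repeat with 1 base between the copies, the PPAR alpha form, was in none of the 9 and in 0.0538% of all. CCAAT was in those of Acads, Etfa and Hadha and in 37.5% of all, and CACGTG in none of the 9 and in 6.42% of all. These are matches of letters on either strand and not measured binding sites.

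All 11 member probes were above background on all 4 arrays, with background-subtracted intensities between 755 and 20701. Over the series, between 18176 and 20071 gene probes per array were above background, and arrays correlated at between 0.969 and 0.982 (Pearson, log2 values of kept probes). All 12 hepatocyte markers were detected, 0 passed the test, and their summed intensities were 249645 and 265884 in the thiamine livers and 257398 and 257784 in the untreated livers. These sums come mostly from Alb, Cyp2e1, Ahsg, Tf, Ttr and Serpina1, which were saturated on all 4 arrays, so that the sums are capped by the scanner. Of the unsaturated markers, Cps1 of the urea cycle was the furthest apart by p, at 13.21 and 13.21 in the thiamine livers and 12.77 and 12.58 in the untreated livers, or 0.53 ± 0.18 (limma unadjusted p = 0.014, adjusted p = 0.54). The 9 measured of 13 Kupffer cell (resident macrophage) markers had positive differences, thiamine less untreated, with a median of 0.62, and 0 passed the test. The groups did not overlap for 6, all higher, beside 17.8% of all probes with a value on every array. Thiamine rat 1 was the highest of the 4 rats for all 9 and untreated rat 2 the lowest for 8. The summed intensities of these markers were 29062 and 20203 in the thiamine livers, against 19734 and 12800 in the untreated livers. The 6 measured of 10 endothelial markers also had positive differences, with a median of 0.35. The lowest value was 0.018 ± 0.21, for Stab1. Of these 6 markers 0 passed, and the groups did not overlap for 4, all higher, beside the same 17.8% of probes. Thiamine rat 1 was the highest for 4 of them and untreated rat 2 the lowest for 4. The sums of these markers were 6013 and 5348 in the thiamine livers, against 4262 and 4082 in the untreated livers. The part of these cells in the differences below was not tested. In whole liver, fewer cells of a type and less RNA per cell cannot be told apart. The number of animals limits the precision of arrays, and with 2 rats per group p-values measure the spread between these rats alone.

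No member passed the test between the thiamine and untreated livers, and the values below describe these 4 rats. Cpt1a and Cpt2 were higher in both thiamine rats than in both untreated rats, by 0.54 ± 0.20 and 0.47 ± 0.20 on the log2 scale (moderated SE, n = 2 per group). Etfdh was lower by 0.64 ± 0.18 in size, and Acadvl, Acadl, Acads and Hadhb were lower by less, while Acadm, Hadha and Etfa overlapped between the groups. Differences are thiamine less untreated throughout. In limma with Benjamini-Hochberg adjustment over all 18664 kept probes, 0 of the 10 genes passed at an adjusted p under 0.05, and 0% of all kept probes did, and their adjusted p lay between 0.38 and 0.99. At an unadjusted p under 0.05 stood 3 members (2 higher, Cpt1a and Cpt2, and 1 lower, Etfdh), beside 6.75% of the kept probes (3.81% higher and 2.94% lower). The groups did not overlap for 7 of 10 members, 2 higher and 5 lower, against 36.2% of 18650 probes with a value on every array, 17.8% higher and 18.3% lower. Over the 10 members the median difference was -0.14, and over all 8985 genes with a kept probe it was 0.0035.

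**Figure D1:**
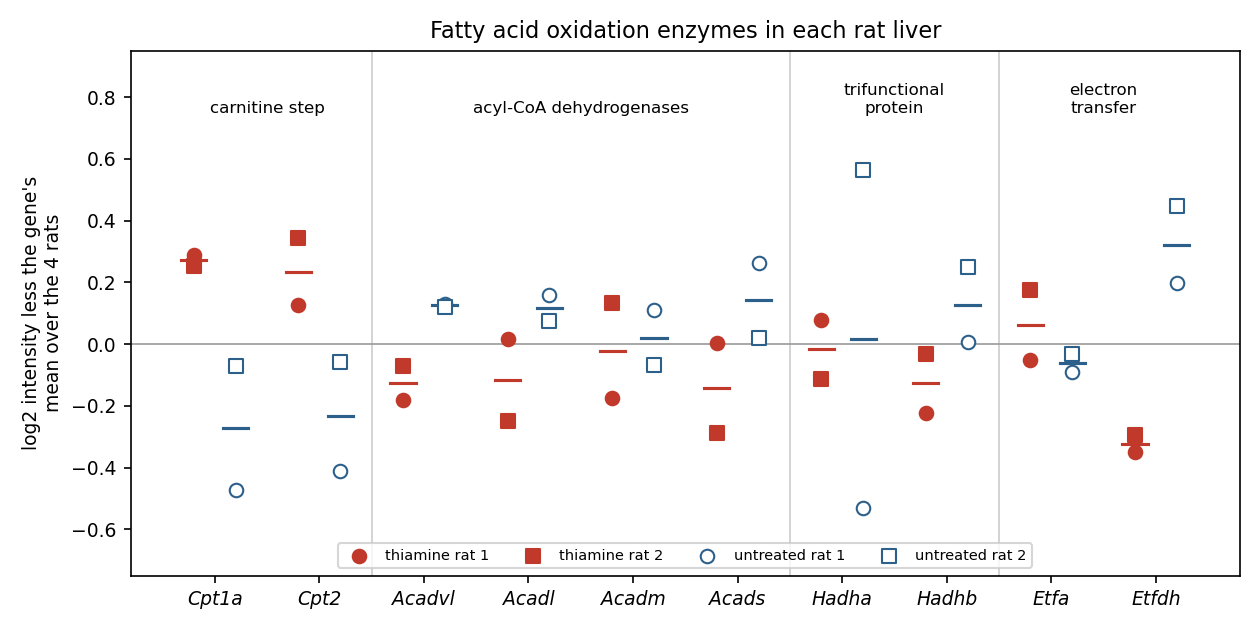
Log2 intensity of each enzyme in each rat, less the mean of that gene over the 4 rats; filled red symbols are thiamine rats, open blue symbols untreated rats, circles rat 1 and squares rat 2, and short lines are group means (n = 2). Cpt1a and Cpt2 are higher and Etfdh lower in both thiamine rats than in both untreated rats, and for Hadha the untreated rats lie 1.09 apart.

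Cpt1a, which controls the entry of long-chain fatty acids, had log2 intensities of 13.11 and 13.08 in thiamine rats 1 and 2, against 12.35 and 12.76 in untreated rats 1 and 2. The thiamine rats were within 0.037 of each other and above both untreated rats, which lay 0.40 apart. The ratio was 1.46-fold (log2 difference 0.54 ± 0.20, 95% interval 0.11 to 0.98, limma unadjusted p = 0.019 and adjusted p = 0.57). Cpt2, which returns the acyl chain to coenzyme A, was at 11.12 and 11.34 in the thiamine rats, against 10.59 and 10.94 in the untreated rats. Both thiamine values were again above both untreated values, and untreated rat 1 was the lowest for both genes. The ratio was 1.38-fold (log2 difference 0.47 ± 0.20, 95% interval 0.033 to 0.90, limma adjusted p = 0.69). The size of both rested in part on untreated rat 1: without it the differences were 0.34 for Cpt1a and 0.29 for Cpt2.

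The acyl-CoA dehydrogenases share 1 reaction and differ in the chain length they prefer. Of these, 3 of 4 were lower with thiamine without overlap of the groups, none passing the test. Over all probes with a value on every array, 18.3% were lower without overlap. Acadvl, for very long chains, was at 12.80 and 12.91 in the thiamine rats, against 13.11 and 13.10 in the untreated rats. Its untreated rats were within 0.0095 of each other and both above the thiamine rats, by -0.25 ± 0.18 for thiamine less untreated. Acadl, for long chains, was at 14.27 and 14.00 in the thiamine rats and at 14.41 and 14.33 in the untreated rats on its brighter probe, a difference of -0.23 ± 0.19. The other Acadl probe was at 13.32 and 13.43 against 13.45 and 13.54, with a difference of -0.12 ± 0.18. Both probes thus ordered the groups the same way, with a smaller difference on the dimmer one, whose spot on thiamine array 1 was flagged as contaminated. Acads, for short chains, was at 11.26 and 10.97 in the thiamine rats and at 11.52 and 11.28 in the untreated rats, a difference of -0.28 ± 0.19. Thiamine rat 1 and untreated rat 2 were 0.016 apart, and the spots of thiamine rat 1 and untreated rat 1 were flagged as contaminated; from the other 2 arrays alone, 1 per group, the difference was -0.31. Acadm, for medium chains, was at 13.37 and 13.68 against 13.66 and 13.48, so that the groups overlapped, with a difference of -0.04 ± 0.19 and a 95% interval from -0.47 to 0.38. The sign of Acadm turned in the deposited table (0.078), without thiamine rat 1 (0.11) and without untreated rat 1. Leaving out 1 rat kept the sign of the other 3, but without thiamine rat 2 the differences were -0.10 for Acadl and -0.14 for Acads, and without untreated rat 1 that of Acads was -0.16. Without thiamine rat 1 they were -0.37 for Acadl and -0.43 for Acads.

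The subunits of the trifunctional protein, whose genes start head to head on either side of the stretch printed above, differed in spread. Hadha, the alpha subunit, which carries the hydratase and the long-chain hydroxyacyl-CoA dehydrogenase, was at 10.39 and 10.20 in the thiamine rats, against 9.78 and 10.87 in the untreated rats. The untreated rats were the lowest and the highest of the 4, and the gap of 1.09 between them was the widest of any member in either group. The difference was -0.03 ± 0.30, with -0.58 when untreated rat 1 and 0.51 when untreated rat 2 was left out. Hadhb, the beta subunit with the thiolase, was at 12.41 and 12.60 against 12.64 and 12.88, with no overlap and a difference of -0.26 ± 0.19. Untreated rat 2 was the highest for both subunits, but untreated rat 1, lowest for Hadha, was above both thiamine rats for Hadhb. Without untreated rat 2 the difference of Hadhb was -0.13, and without thiamine rat 1 it was -0.16.

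Etfdh, the ubiquinone oxidoreductase that takes electrons from the flavoprotein, was the member furthest apart. It was at 11.77 and 11.83 in the thiamine rats, against 12.32 and 12.57 in the untreated rats. Both thiamine rats, 0.056 apart, lay below both untreated rats. The ratio was 0.64-fold (log2 difference -0.64 ± 0.18, 95% interval -1.05 to -0.24, limma unadjusted p = 0.0052 and adjusted p = 0.38), at place 254 by p among the 18664 kept probes. Its difference stayed between -0.77 and -0.52 when 1 rat was left out. Etfa, the alpha subunit of the flavoprotein itself, was at 9.89 and 10.11 against 9.84 and 9.90, where the groups overlapped, with a difference of 0.12 ± 0.18. Leaving out thiamine rat 2 gave 0.012 and leaving out thiamine rat 1 gave 0.24. The beta subunit Etfb, named here after its value was seen, was at 10.26 in each thiamine rat and at 9.60 and 10.55 in the untreated rats, or 0.19 ± 0.27. Its untreated rats lay on either side of the thiamine rats, so that the sign rests on untreated rat 1. The groups thus overlapped for both subunits of the flavoprotein and did not for Etfdh, and the difference between Etfdh and either of them was not tested.

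**Figure D2:**
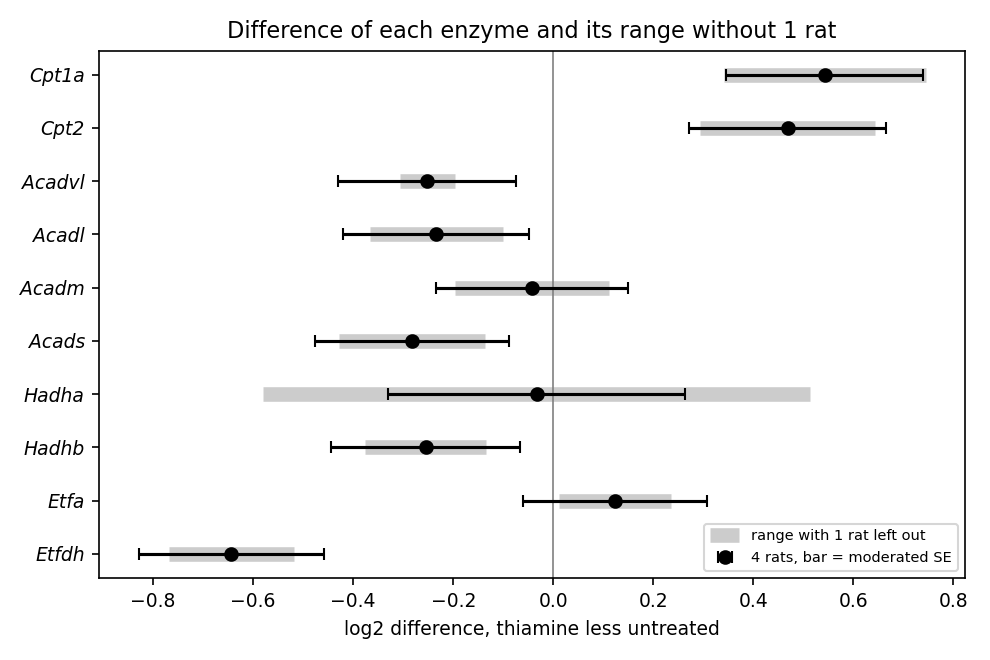
Log2 difference of each enzyme, thiamine less untreated (points, bars are the moderated SE, n = 2 per group), with the range of values when 1 of the 4 rats is left out (grey). Of the grey bars, those of Acadm and Hadha cross 0, with Hadha running from -0.58 to 0.51, and those of the other 8 enzymes stay on 1 side of it.

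By step, the mean log2 intensity of Cpt1a and Cpt2 was 12.12 and 12.21 in the thiamine rats and 11.47 and 11.85 in the untreated rats, a difference of 0.51. The mean of the 4 dehydrogenases with Etfa and Etfdh was 12.23 and 12.25 in the thiamine rats and 12.48 and 12.44 in the untreated rats, a difference of -0.22. The 4 dehydrogenases alone gave -0.20, and of the electron transfer genes Etfdh was at -0.64 and Etfa at 0.12. The carnitine step less these 6 genes was thus 0.73 higher in the thiamine livers, and between 0.52 and 0.93 when 1 rat was left out. That value was -0.11 and -0.041 in the thiamine rats and -1.01 and -0.60 in the untreated rats, where only its difference between rats can be read, since levels of different probes are not comparable. No test is given for these means, because the members were chosen with earlier results known. The mean of Hadha and Hadhb followed neither, at 11.40 in each thiamine rat and 11.21 and 11.88 in the untreated rats. It joins 2 unlike genes: Hadhb alone was lower without overlap, at -0.26, and for Hadha the untreated rats lay 1.09 apart.

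**Figure D3:**
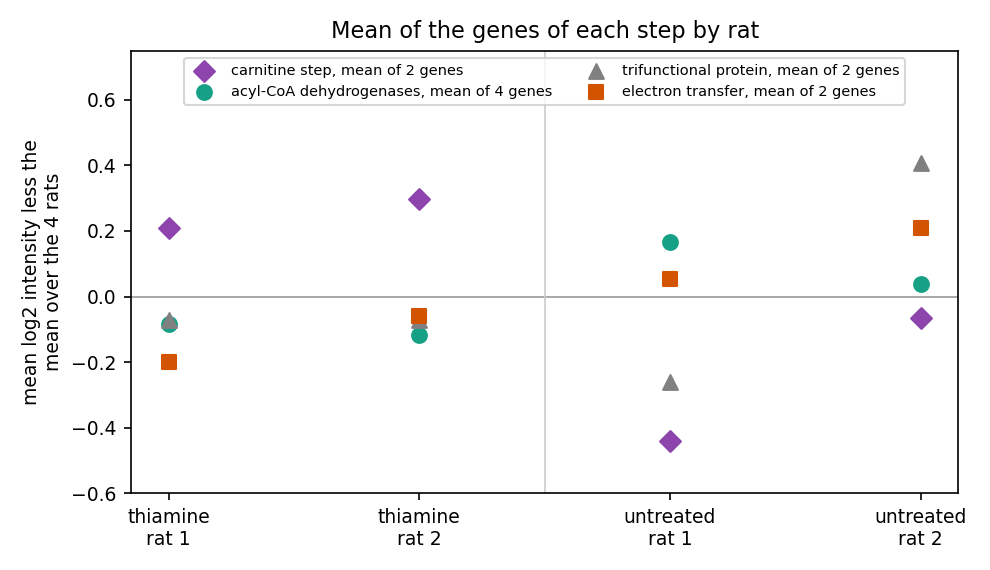
Mean log2 intensity of the genes of each step in each rat, less its mean over the 4 rats. The carnitine step (diamonds) is at 0.21 and 0.30 in the thiamine rats and at -0.44 and -0.064 in the untreated rats, while the dehydrogenases (circles) and electron transfer (squares) are below 0 in the thiamine rats and above 0 in the untreated rats. The electron transfer mean averages Etfdh, with a group difference of -0.64, and Etfa, at 0.12 with overlapping groups.

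Around the carnitine step, 0 of 17 measured genes of fatty acid uptake, activation and carnitine use passed the test in either direction, with 12 higher, 5 lower and a median of 0.055, which lay between -0.081 (without untreated rat 1) and 0.17 when 1 rat was left out. Slc25a20, the translocase between Cpt1a and Cpt2, was at 11.88 and 12.06 in the thiamine rats and 11.50 and 11.90 in the untreated rats, a difference of 0.27 ± 0.20 with overlapping groups and 0.075 or 0.47 when untreated rat 1 or rat 2 was left out. Crot, the peroxisomal carnitine octanoyltransferase, was at 9.55 and 10.36 against 10.40 and 11.12, or -0.80 ± 0.29, with -0.40 when thiamine rat 1 and -0.44 when untreated rat 2 was left out, and -1.20 when thiamine rat 2 and -1.16 when untreated rat 1 was left out. Slc27a5, a bile acid and fatty acyl-CoA ligase, was saturated on both thiamine arrays, so that its measured ratio of 1.24-fold is capped by the scanner (limma adjusted p = 0.82). Its log2 difference was 0.32 ± 0.18, or 0.23 with median scaling and between 0.22 and 0.42 when 1 rat was left out. Crot thus lay on the other side of 0 from Cpt1a and Cpt2, and the difference between them was not tested.

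Among the other enzymes of mitochondrial beta-oxidation, 9 of 18 were higher and 9 lower, 0 passed, and the median was -0.018 (between -0.10 and 0.056 with any 1 rat removed). Echs1, the short-chain enoyl-CoA hydratase, was higher by 0.30 ± 0.19 (0.11 when thiamine rat 2 and 0.49 when thiamine rat 1 was left out), Gcdh, the glutaryl-CoA dehydrogenase, by 0.38 ± 0.21 (0.11 when untreated rat 1 and 0.66 when untreated rat 2 was left out), and Acad9, which also assembles respiratory complex I, was at -0.25 ± 0.20 (-0.073 and -0.44 when untreated rat 2 or rat 1 was left out). Gcdh, a dehydrogenase that also delivers to the flavoprotein, thus lay on the other side of 0 from Acadvl, Acadl and Acads. In the peroxisome, which has a beta-oxidation of its own, 6 of 11 genes were higher and 5 lower, 0 passed, and the median was 0.079. Removing untreated rat 2 made that median 0.32, removing untreated rat 1 made it -0.012, and removing thiamine rat 1 made it -0.0071. Ehhadh, the bifunctional enzyme, was higher by 0.52 ± 0.22 (0.24 when thiamine rat 2 and 0.81 when thiamine rat 1 was left out), while Hsd17b4, the other multifunctional enzyme, was at -0.28 ± 0.18.

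Of 20 measured regulators 12 were higher and 8 lower, 0 passed, and the median was 0.045 (between -0.058 and 0.079 with any 1 rat removed). Acacb, which makes the malonyl-CoA that inhibits Cpt1a, was at 7.83 and 7.76 in the thiamine rats and 8.37 and 7.96 in the untreated rats, a difference of -0.37 ± 0.20, with -0.16 when untreated rat 1 and -0.57 when untreated rat 2 was left out. Foxa2 was at 0.44 ± 0.23, with 0.10 when thiamine rat 1 and 0.78 when thiamine rat 2 was left out, and the corepressor Ncor1 at -0.32 ± 0.18. The receptor Ppara and its coactivator Ppargc1a, named after their values were seen, were at 0.013 ± 0.21 and 0.016 ± 0.21. Fgf21, a fasting hormone under PPAR alpha and also named after its values were seen, was at 12.73 and 12.70 in the thiamine rats and 10.65 and 12.97 in the untreated rats, so that untreated rat 1 stood far below the other 3.

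Of 17 targets of PPAR alpha outside oxidation 9 were higher and 8 lower, 0 passed, and the median was 0.012 (between -0.097 and 0.17 with any 1 rat removed). This list shares Slc25a20 and the muscle form Cpt1b with the list around the carnitine step. Pdk4, which switches off pyruvate dehydrogenase and so spares glucose, was at 9.50 and 9.85 in the thiamine rats and 8.77 and 8.94 in the untreated rats, or 0.82 ± 0.19 (limma adjusted p = 0.25). The lipid droplet protein Hilpda was higher by 0.61 ± 0.20, and Txnip was at -0.51 ± 0.22, with -0.22 when thiamine rat 2 and -0.80 when thiamine rat 1 was left out. Cpt1a and Cpt2 were thus on the same side of 0 as Pdk4 and Hilpda, and the list as a whole had its median near 0.

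Next to Etfdh at the ubiquinone pool, 6 of 15 measured genes of ubiquinone synthesis, flavin supply and other dehydrogenases that feed ubiquinone or the flavoprotein were higher and 9 lower, 0 passed, and the median was -0.050 (between -0.051 and 0.064 with any 1 rat removed). Coq8a, needed for ubiquinone synthesis, was at 10.10 and 10.07 in the thiamine rats and 10.99 and 11.11 in the untreated rats. The thiamine rats lay 0.027 apart and far below both untreated rats, by -0.96 ± 0.18 (limma adjusted p = 0.22). Coq7, a hydroxylase of the same synthesis, was at -0.44 ± 0.20, or -0.23 without thiamine rat 2, and Prodh, the proline dehydrogenase, was higher by 0.71 ± 0.19 on its brighter probe. Its dimmer probe differed by 0.058 ± 0.22, and the mean over both probes by 0.38. Of 19 genes of the respiratory chain and mitochondrial content 10 were higher and 9 lower, 0 passed, with a median of 0.0077, which became -0.23 on removing untreated rat 1 and 0.12 on removing untreated rat 2. Ndufv1 and Cyc1, of complexes I and III, were at -0.48 ± 0.18 and -0.39 ± 0.18, and Uqcrc2, with contaminated spots on thiamine array 1 and untreated array 2, at -0.33 ± 0.18. The groups did not overlap for any of these 3, which were named for the smallest p of the list. Of all 19 genes, 1 was higher and 6 were lower without overlap, beside 36.2% of all probes with a value on every array.

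**Figure D4:**
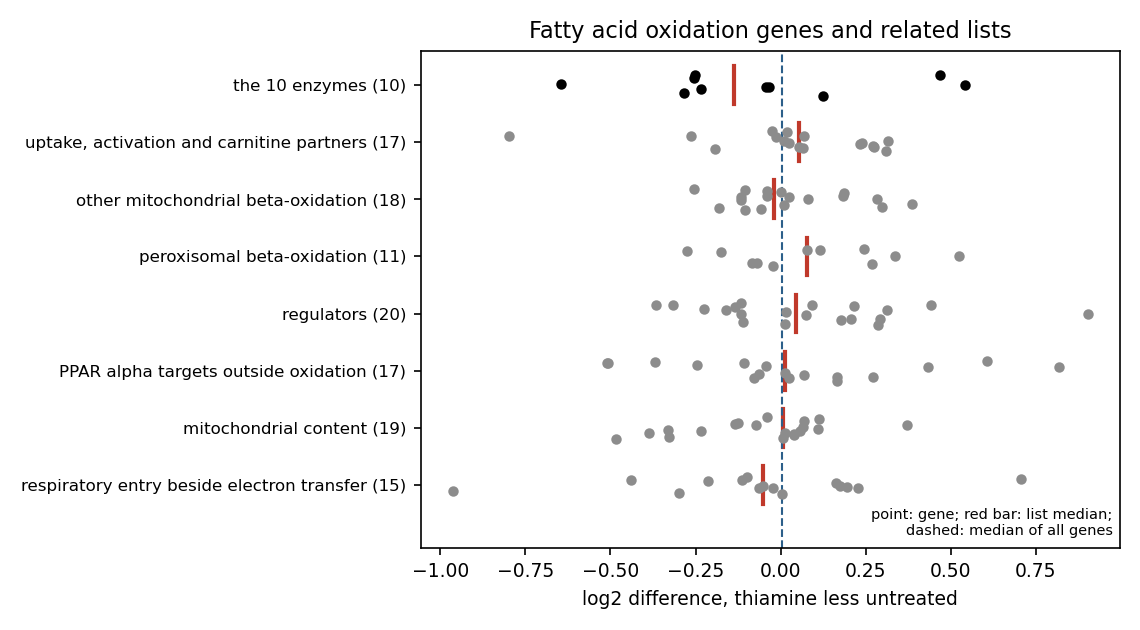
Log2 difference, thiamine less untreated, of each measured gene (points) of the 10 enzymes and 7 related lists, with the number of genes in brackets; red bars are list medians and the dashed line is the median of all genes. The 10 enzymes have a median of -0.14 and run from -0.64 to 0.54, and the medians of the 7 other lists lie between -0.050 and 0.079; with any 1 rat left out those medians span -0.23 to 0.32, and that of the 10 enzymes -0.18 to -0.12.

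Untreated rat 1 stood apart for many of these genes. It had the lowest of the 4 values for Cpt1a, Cpt2, Hadha and Etfa, where the share over all genes was 29.6%. The same held for 12 of the 19 genes of mitochondrial content, 6 of 11 peroxisomal genes and 8 of the 17 genes around the carnitine step. In the other lists, untreated rat 1 was lowest for 8 of 17 PPAR alpha targets and 7 of 18 other mitochondrial beta-oxidation genes. Untreated rat 1 was also lowest for 7 of 20 regulators and 5 of 15 genes next to Etfdh. It had the highest value for 3 of the 4 dehydrogenases, Acadvl, Acadl and Acads, and for 2762 of 8978 genes over the series. For Acadl this holds on the brighter probe only: on the dimmer one untreated rat 2 was higher, at 13.54 against 13.45. The dehydrogenases thus did not share the low position of the carnitine genes in untreated rat 1. Leaving it out gave 0.094 for Etfa, -0.25 for Acadvl and -0.19 for Acadl, beside the values already given for the other genes and the lists.

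The genes whose values over the 4 rats were most like those of Cpt1a, by the root mean square distance of log2 values centred on each gene's own mean, were Eno3 (0.024), Zfpm1 (0.029) and Mrm1 (0.034), and Cpt2 ranked at place 79 among 8984 genes at 0.099. For Etfdh they were Evc (0.011), Fastk (0.028) and Mlec (0.045), and the nearest other member was Hadhb at rank 383 and 0.20. Cpt2 was thus close to Cpt1a, whereas the members nearest to Etfdh were less close to it. Eno3 was flagged near background on untreated array 1 and Evc on thiamine array 1. The difference of Evc was -0.64 ± 0.18, against -0.94 with plain background subtraction. With spots flagged for other reasons set missing, Eno3, Mrm1 and Evc were at 0.50, 0.58 and -0.60, the same values as without thiamine rat 1. Their spots on thiamine array 1 were thus flagged, and the distances of Eno3, Mrm1 and Evc are less certain. Each distance rests on 4 arrays.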

How the data were processed

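Liver RNA of 4 rats was hybridised to 1 CodeLink array each. Per the file headers, the authors' scanner reports give intensity on a linear scale for each spot, its local background and their difference, with a quality flag. The deposited table also holds intensity, with nearly equal medians on all arrays, and the labels do not say how it was made. From spot mean and local background, normexp with an offset of 50 was applied, 1280 control features were left out, and log2 values were quantile normalized. Masked spots (55 to 67 per array) were missing, and contaminated or saturated spots were kept. A probe was kept if, in 1 group or both, neither array flagged it near background (18664 probes). Gene names are those of the platform annotation with symbols updated from RefSeq (GRCr8), and the brightest kept probe stands for a gene. The comparison used limma 3.58.1 under R 4.3.3, with a two-sided test, 2 residual degrees of freedom, p-values adjusted by Benjamini-Hochberg across the kept probes and a threshold of 0.05, and the fit was tested on simulated data. Its moderated SE borrows from the spread of all probes, and 95% intervals use the median total degrees of freedom of 10.8. The members, lists and tests were chosen with earlier results of these data known. Named genes are the 10 members, the 3 with the smallest unadjusted p of each other list, and the 3 genes nearest in profile to Cpt1a and to Etfdh; 1 gene that the rule names is not reported here. Alternatives covered background, offset, scaling, the deposited table, the filter, flagged spots, probe choice, the replicate block and each rat left out. Each array was on its own slide.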

Additional observations from a re-analysis of the deposited data

How the results depend on the processing

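Over 13 alternatives for each of the 10 enzymes, 125 of 130 values kept their sign and none passed an adjusted p under 0.05 (limma); the adjusted p ran from 0.16 to 1.0 for Etfdh and from 0.24 to 1.0 for Cpt1a. The other 5 reversed: Acadm was at 0.078 in the deposited table, and with 1 rat left out ran from -0.20 to 0.11, as did Hadha from -0.58 to 0.51. The carnitine step less the 6 genes behind it was between 0.52 and 0.93 with 1 rat left out and between 0.72 and 0.74 otherwise. The median over the members was -0.11 with the mean over the probes of a gene, and between -0.18 and -0.12 with 1 rat left out. Over all probes, 0 passed at an adjusted p under 0.05 and 1260 at an unadjusted one; with 1 rat left out, between 1 and 65 and between 696 and 2459. A lone rat is there assumed to vary like the other group. With the replicate number as a block 126 passed, none of them a member, and Coq8a did (adjusted p = 0.022). The labels give rats of both groups the numbers 1 and 2, but deviations of rats with the same number correlated at -0.074 over 18650 probes, so the number is not taken as a pairing. Slide as a block could not be fitted, with 1 array per slide. Depth is no limit for arrays, where all member probes were above background; 2 rats per group is.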
